A study of Mus musculus with 9 samples.

Results

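The genes described here encode the proteasome, the barrel-shaped protease that degrades ubiquitin-tagged proteins. They were taken by symbol, as every gene whose name begins with Psma, Psmb, Psmc or Psme followed by a digit, or with Psmd, without the immunoproteasome subunits Psmb8, Psmb9 and Psmb10. The rule took 42 of the 24532 genes in the deposited count table, with 50 transcripts on 16 chromosomes. In the core of the proteasome, rings of alpha subunits gate the entry to inner rings of beta subunits, some of which carry the active sites. A regulatory cap, made of a base with ATPases and a lid with a deubiquitinase, captures and unfolds the substrate, and separate activators can sit in its place. Neutrophils, the short-lived granulocytes of innate immunity, mature in the bone marrow, where they fill their granules with protein before release into the blood.

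The neutrophils were sorted from lung, from blood and from bone marrow of wild type C57BL/6 mice, and each tissue has 3 biological replicates, 9 libraries in all. All 9 were made from polyadenylated RNA. The labels give no treatment, age, sex or sort marker, nor whether a replicate was a single mouse or a pool, so p-values measure only the spread between these libraries.

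Deposited counts summed to 42045548 to 56796219 per library, of which the 42 genes held 0.0921% to 0.142%, and a floor of 3 counts was 0.0528 to 0.0714 CPM (counts scaled to library size). Levels are in CPM after TMM scaling (trimmed mean of M-values), which corrects for RNA composition. Lung replicate 3 stood apart, with a TMM factor of 0.791 against 1.19 and 1.14 in the other lung libraries; the factors were 1.09, 1.26 and 1.05 in blood and 0.937, 0.899 and 0.776 in bone marrow. The 8 defining neutrophil markers, S100a8 and Csf3r among them, summed to 20810 to 38420 CPM in lung, 29770 to 43110 CPM in blood and 81400 to 119400 CPM in bone marrow. Of these 8, 7 were lower in lung than in bone marrow, 1 was lower in lung than in blood, and 5 were lower and 1 higher in blood than in bone marrow. They did not move alike: Csf3r had 5210 to 10840 CPM in lung, 11330 to 15900 CPM in blood and 4394 to 5388 CPM in bone marrow, while Ly6g had 15.4 to 27.0 CPM in lung, 21.2 to 24.8 CPM in blood and 418 to 678 CPM in bone marrow. The 7 neutrophil precursor markers, such as Ltf, Camp and Ngp, summed to 185 to 287 CPM in lung, 259 to 366 CPM in blood and 18370 to 23680 CPM in bone marrow. All 7 were lower in lung and in blood than in bone marrow, and their part in the differences below was not tested. They differed between the bone marrow libraries: Ltf, Camp and Ngp, which made up most of the sum, were highest in replicate 3. Mpo had 161, 65.6 and 9.41 CPM in bone marrow replicates 1, 2 and 3, and Elane, Prtn3 and Ctsg fell in the same order. Fewer cells of a type and less RNA per cell cannot be told apart in such bulk samples.

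Of the 42 genes, 40 passed the filter on low counts. The paralogs that did not are Psma8, an alpha subunit of the testis, with 0 to 6 counts per library, and Psmb11, a beta subunit of the thymus, with 0 counts in every library. Psmc3ip passed, but shares only its symbol with the family: it is a factor of meiotic recombination and no subunit, and had 0.149 to 0.521 CPM. In the GENCODE M21 annotation, Psma2, Psma4, Psmb7, Psmc3, Psmc3ip, Psmd1, Psmd5, Psmd9, Psmd13, Psme1 and Psme2b overlap a protein-coding gene, 3 of these 11 on their own strand, so that part of their counts may belong to a neighbour. Levels of different genes are compared by FPKM, a count scaled for transcript length as well as for depth. In lung, the highest mean FPKM were those of Psme1 (93.9 ± 15.4), Psme2 (77.9 ± 14.6) and Psmb3 (64.7 ± 14.1; SD, n = 3). In blood they were those of Psme1 (87.4 ± 10.6), Psmd4 (59.02 ± 2.24) and Psme2 (57.97 ± 4.94). In bone marrow they were those of Psmb3 (92.4 ± 6.10), Psme1 (90.9 ± 10.2) and Psmd4 (56.7 ± 1.20). Psme1 and Psme2 encode the chains of an interferon-inducible activator, Psmb3 a beta subunit with no active site, and Psmd4 a ubiquitin receptor of the base. Among the tested subunits and chaperones, the lowest mean FPKM was in each tissue that of Psmd9, an assembly chaperone, with 2.31 ± 0.994 in lung, 2.01 ± 0.359 in blood and 1.64 ± 0.305 in bone marrow.

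Summed over the 42 genes, the level was 1142 ± 53.7 CPM in lung, 1126 ± 46.7 CPM in blood and 1610 ± 156 CPM in bone marrow (SD, n = 3 each). The libraries had 1181, 1081 and 1164 CPM in lung, 1117, 1085 and 1177 CPM in blood and 1470, 1582 and 1778 CPM in bone marrow. Every bone marrow library lay above the other 6, and lung and blood overlapped. Without the TMM factors the sums were 1398, 1231 and 921 CPM in lung, 1211, 1364 and 1236 CPM in blood and 1376, 1421 and 1379 CPM in bone marrow. On that scale bone marrow was still above blood in every library, but overlapped lung. Of the 40 tested genes, 34 had their highest mean CPM in bone marrow, 3 in lung (Psmd7, Psmd9 and Psme2) and 3 in blood (Psmd3, Psmd11 and Psme2b). The share of all genes with this order was not counted, and it depended on the TMM factors. By mean FPKM, without these factors, Psma3, Psma4, Psmd4, Psmd5, Psmd8, Psmd12 and Psmc3ip of the 34 were highest in blood. Psma5, Psmb2, Psmb6, Psmc5 and Psme1 were highest in lung by FPKM, and the rest of the 34 stayed highest in bone marrow.

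**Figure D1:**
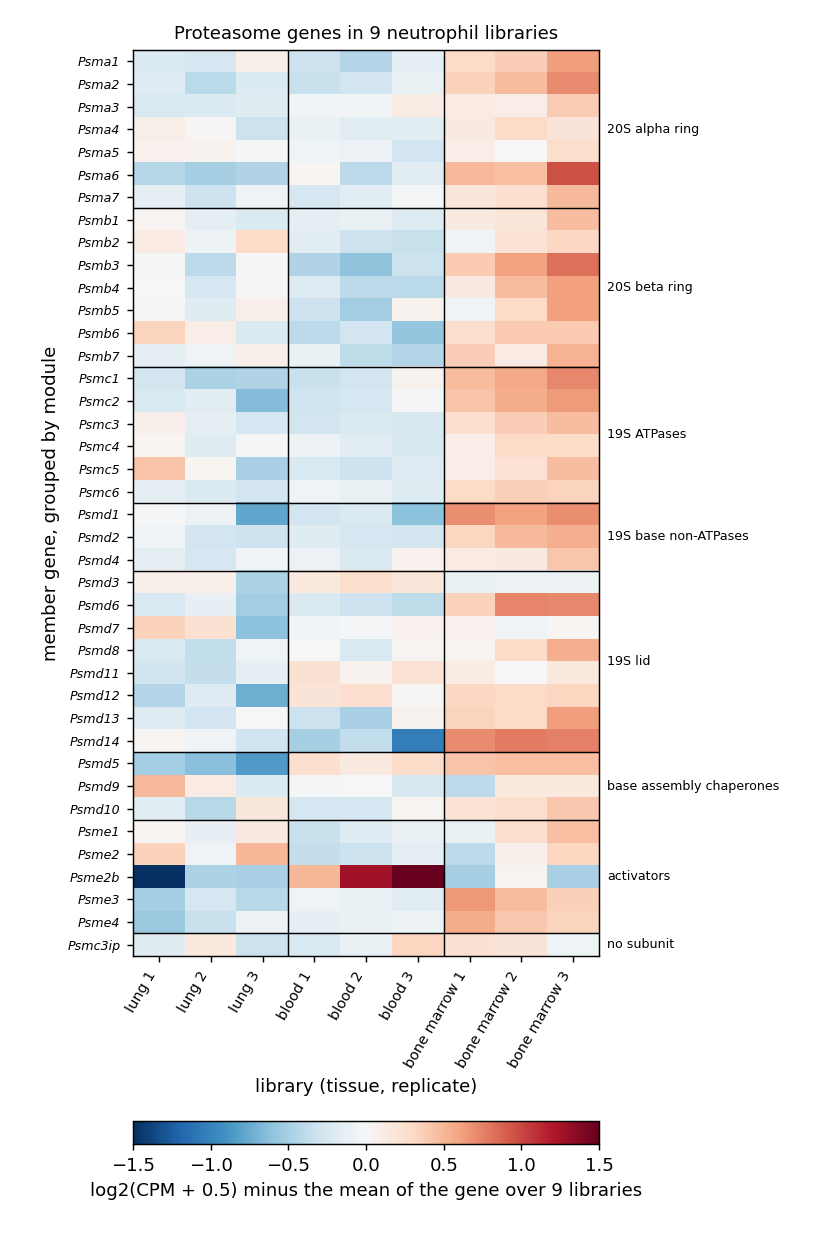
Level of each of the 40 tested genes in each library, as log2(CPM + 0.5) minus the gene's mean over the 9 libraries, with colours capped at 1.5 in both directions. Rows are genes by module, columns are lung, blood and bone marrow libraries, and red is above the gene's mean; most rows are red in the 3 bone marrow columns, while Psme2b is red in the 3 blood columns.

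To show the regions before the genes on which the comparisons turn, 250 bases upstream of the annotated start are printed for 5 of them, from RefSeq on GRCm38.p6 (the assembly also called mm10), 5′ to 3′ on the gene's strand. Psmd14 encodes the deubiquitinase of the lid, Psmb6 the beta subunit with the caspase-like active site, and Psmd5 a chaperone of base assembly. Psme2 encodes the beta chain of the inducible activator, and Psme2b is a single-exon copy of it. Capitals mark matches on either strand to TGACNNNGC (the core of the antioxidant response element), CCAAT (the box of that name), CGGAAG (an ETS core), GGGCGG (a GC box) or TATAAA.
Psmd14, chr2:61711444-61711693, plus strand: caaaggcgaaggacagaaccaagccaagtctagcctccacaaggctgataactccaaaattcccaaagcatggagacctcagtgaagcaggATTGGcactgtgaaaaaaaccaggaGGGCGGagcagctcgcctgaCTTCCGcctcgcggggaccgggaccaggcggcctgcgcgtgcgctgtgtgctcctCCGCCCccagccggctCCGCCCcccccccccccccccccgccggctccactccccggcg
Psmb6, chr11:70525107-70525356, plus strand: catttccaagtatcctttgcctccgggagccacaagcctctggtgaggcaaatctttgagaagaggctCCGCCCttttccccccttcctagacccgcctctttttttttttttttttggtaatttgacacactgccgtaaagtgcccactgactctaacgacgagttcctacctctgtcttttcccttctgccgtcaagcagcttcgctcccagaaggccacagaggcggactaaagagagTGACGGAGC
Psmd5, chr2:34870963-34871212, minus strand: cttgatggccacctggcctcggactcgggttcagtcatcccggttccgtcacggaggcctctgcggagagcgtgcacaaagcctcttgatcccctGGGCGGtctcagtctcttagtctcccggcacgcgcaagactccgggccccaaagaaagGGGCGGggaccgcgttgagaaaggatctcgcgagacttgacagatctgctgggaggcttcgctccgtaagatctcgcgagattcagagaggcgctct
Psme2, chr14:55591102-55591351, minus strand: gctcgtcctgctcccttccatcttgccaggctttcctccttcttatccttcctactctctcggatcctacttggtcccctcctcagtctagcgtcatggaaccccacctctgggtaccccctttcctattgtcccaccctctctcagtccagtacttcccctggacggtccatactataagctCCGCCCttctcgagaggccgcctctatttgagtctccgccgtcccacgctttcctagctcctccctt
Psme2b, chr11:48946411-48946660, minus strand: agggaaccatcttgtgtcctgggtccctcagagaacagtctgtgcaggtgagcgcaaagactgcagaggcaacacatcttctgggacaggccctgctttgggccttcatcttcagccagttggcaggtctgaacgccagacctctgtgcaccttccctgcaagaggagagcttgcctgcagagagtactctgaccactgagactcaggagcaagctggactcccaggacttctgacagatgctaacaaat

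RefSeq windows matched 35 of the 42 genes, and the motifs were chosen after matches in these windows had been seen, so their counts only describe them. The ETS core stood in 18 of the 35 windows (51.4%), against 13.8% of the 27025 windows of all genes. The GC box stood in 20 (57.1%), against 32.9% of all genes, and CCAAT in 14 (40.0%), against 34.5%. The antioxidant element core stood in 5 (14.3%), those of Psmb5, Psmb6, Psmc6, Psmd9 and Psmd12, against 10.1% of all genes, and TATAAA in 3 (8.57%), against 3504 of all 27025 windows. Median GC content was 57.6% in the 35 windows and 52.0% in those of all genes. Of the windows printed, that of Psmd14 holds an ETS core, a CCAAT and 3 GC boxes, and that of Psmb6 the antioxidant element core and 1 GC box. The Psmd5 window holds 2 GC boxes and the Psme2 window 1. The Psme2b window holds none of the 5 motifs and lies within the span of a neighbouring gene, 9930111J21Rik1.

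Blood was set against bone marrow, the circulating cells against those at the site of production. In blood, 21 of the 40 tested proteasome genes were lower than in bone marrow, where 13.1% of all 13510 tested genes were lower, and 1 was higher (8.34% of all genes). The lowered genes were spread over the alpha ring (4 of 7), the beta ring (5 of 7), the ATPases (5 of 6), the other base subunits (2 of 3), the lid (3 of 8) and the activators (2 of 5). None of the 3 assembly chaperones passed. Libraries did not overlap, with blood lower, for 31 of the 40 genes (25.6% of all genes), and with blood higher for 2, Psmd3 and Psme2b (19.8% of all genes). The median log2 fold change was -0.46 over the 40 genes and -0.05 over all genes. The 7 proliferation markers summed to 19.7 to 224 CPM in blood, against 74.1 to 184 CPM in bone marrow, with 4 of 7 lower. Pcna made up 216 CPM of the highest blood sum, that of replicate 1, and its libraries overlapped, as did those of Mcm5. Mki67 (0.566 to 2.94 CPM in blood, against 10.8 to 57.9 CPM in bone marrow), Top2a, Cdk1, Ccnb1 and Birc5 did not overlap, with blood lower. Erythroid markers summed to 822 to 8812 CPM in blood, against 1719 to 9370 CPM in bone marrow, with 2 of 7 lower, and replicate 3 had the lowest erythroid sum of each tissue. Macrophage markers summed to 95.9 to 140.2 CPM in blood, against 816 to 1105 CPM in bone marrow, without overlap and with 1 of 7 lower and 1 higher. That sum was nearly all Chil3 in bone marrow (38.1 to 94.5 CPM in blood, against 800 to 1082 CPM in bone marrow). Siglecf went the other way (41.6 to 56.6 CPM in blood, against 10.7 to 11.8 CPM in bone marrow), and the rest had at most 4.55 CPM in either tissue. Monocyte markers summed to 688 to 703 CPM in blood, against 825 to 1198 CPM in bone marrow, also without overlap, with 1 of 6 lower and 3 higher. The higher bone marrow sum came from Ly6c2 (47.4 to 60.3 CPM in blood, against 544 to 861 CPM in bone marrow). Csf1r (501 to 609 against 240 to 329 CPM), Ace and Cx3cr1 were higher in every blood library, and Ccr2 and F13a1 overlapped. Fibroblast and smooth muscle markers (52.9 to 94.7 CPM in blood, against 121 to 268 CPM in bone marrow) and lung epithelium markers (0.362 to 1.11 CPM in blood, against 3.50 to 69.2 CPM in bone marrow) did not overlap either, with 1 gene of each lower. Bone marrow replicate 3 had the highest bone marrow sum of both lists. The lung epithelium sums were 3.50 and 3.94 CPM in bone marrow replicates 1 and 2, and Sftpc had 0.0477, 0 and 36.3 CPM in replicates 1, 2 and 3. B and plasma cell markers summed to 334, 314 and 53.6 CPM in blood, against 101, 55.7 and 24.3 CPM in bone marrow, with 1 of 7 higher. The part of these cells was not tested. Calls and adjusted p-values are those of edgeR (quasi-likelihood test, Benjamini-Hochberg adjustment) unless another tool is named.

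The lid held the largest fall. Psmd14 (Entrez 59029, chr2:61711694-61800376, mm10), the deubiquitinase that strips ubiquitin from the substrate, had 9.55, 10.5 and 6.39 CPM in blood, against 22.6, 23.9 and 23.4 CPM in bone marrow. Every blood library was below every bone marrow library, with a log2 fold change of -1.40 ± 0.20 (SE; adjusted p 0.0015). Psmd6, a scaffold subunit of the lid, had 11.3, 10.6 and 10.1 CPM in blood, against 17.0, 22.3 and 22.2 CPM in bone marrow, again with no overlap (-0.94 ± 0.17, adjusted p 0.00524). Psmd13, another lid subunit, also fell (-0.67, adjusted p 0.0242), a call lost when any library except lung replicate 1, 2 or 3 was left out (0.0516 to 0.31). The other 5 lid genes did not pass: Psmd8 was at -0.37, Psmd12 at -0.15, Psmd7 at -0.01, Psmd11 at 0.08 and Psmd3 at 0.30. Within each library, FPKM of Psmd14 over that of Psmd11, a lid subunit that braces the lid against the core, was 0.436, 0.543 and 0.296 in blood, against 1.13, 1.28 and 1.13 in bone marrow. The ratio did not overlap (two-sided exact permutation test, p 0.1, the smallest that 3 against 3 allows). The pair sets the largest fall of the lid over a gene that did not fall, so this separation adds no support to the Psmd14 call.

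In the base, Psmd1, a large scaffold subunit, had 14.3, 14.9 and 11.2 CPM in blood, against 28.6, 26.8 and 28.6 CPM in bone marrow. Each blood library was far below each bone marrow library (-1.06 ± 0.22, adjusted p 0.0089). Psmd2, the docking scaffold for ubiquitin-like domains, fell as well (-0.70, adjusted p 0.00418), a call lost without blood replicate 1 (0.0536) or 2 (0.0767). Psmd4, the ubiquitin receptor, had 72.4, 66.3 and 80.7 CPM in blood, against 83.8, 84.7 and 102 CPM in bone marrow. Its libraries did not overlap, but it did not pass (-0.30 ± 0.14, adjusted p 0.151), though it did with a replicate block, a term for the replicate number (adjusted p 0.0477), and it was at 0.06 on the log2(FPKM + 0.1) scale.

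Among the ATPases, which thread the substrate into the core, Psmc1 had 20.8, 21.7 and 27.5 CPM in blood, against 36.9, 39.4 and 43.8 CPM in bone marrow. Blood was lower in every library (-0.78 ± 0.15, adjusted p 0.00587), though the call was lost without blood replicate 1 (0.0938) or 2 (0.102). Psmc2 (-0.74), Psmc3 (-0.62), Psmc4 (-0.39) and Psmc6 (-0.46) fell too, and Psmc5 did not pass (-0.53, adjusted p 0.13). The calls of these 4 also depended on single libraries. That of Psmc2 was lost without blood replicate 1 (0.0812) or 2 (0.0904) and that of Psmc3 without blood replicate 1 (0.0911), 2 (0.0937) or 3 (0.0514). Those of Psmc4 and Psmc6 were lost without any blood library and some others, with adjusted p up to 0.388 and 0.214.

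In the core, Psmb3 had 38.3, 34.3 and 41.6 CPM in blood, against 68.7, 79.95 and 93.02 CPM in bone marrow, the largest fall of the beta ring (-1.08 ± 0.16, adjusted p 0.00198; 0.0512 without blood replicate 2). Psma6, an alpha subunit, had 35.99, 26.8 and 31.6 CPM in blood, against 49.8, 48.3 and 69.1 CPM in bone marrow, the largest fall of the alpha ring (-0.82 ± 0.17, adjusted p 0.00937), a call lost without blood replicate 2 (0.106) or 3 (0.0619). Neither gene's libraries overlapped. Psma1 (-0.74), Psma2 (-0.77), Psma7 (-0.46), Psmb1 (-0.42) and Psmb4 (-0.76) also fell, while Psma3, Psma4, Psma5 and Psmb2, at -0.44 to -0.20, did not pass. The calls of Psma1 and Psma2 were lost without blood replicate 1 (0.145 and 0.0988) or 2 (0.182 and 0.105), and that of Psma1 also without replicate 3 (0.0653). The Psmb4 call was lost without blood replicate 1 (0.0716), 2 (0.125) or 3 (0.0909). Those of Psma7 and Psmb1 were lost without any blood or bone marrow library, with adjusted p up to 0.412 and 0.278.

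The beta ring holds 3 catalytic subunits. Psmb6, with the caspase-like site, had 15.4, 16.5 and 13.3 CPM in blood, against 24.3, 26.8 and 26.8 CPM in bone marrow. It was lower in every blood library (-0.78 ± 0.17, adjusted p 0.0104). Psmb7, with the trypsin-like site, had 26.6, 21.8 and 20.95 CPM in blood, against 37.0, 31.2 and 41.1 CPM in bone marrow, and fell without overlap as well (-0.66 ± 0.15, adjusted p 0.0142), a call lost without bone marrow replicate 3 (0.066), blood replicate 1 (0.0775), 2 (0.183) or 3 (0.148). Psmb5, with the chymotrypsin-like site, had 16.6, 14.3 and 21.5 CPM in blood, against 19.8, 25.7 and 32.1 CPM in bone marrow. Its highest blood library was above its lowest bone marrow library, and it did not pass (-0.56 ± 0.21, adjusted p 0.0901), except with the replicate block (adjusted p 0.0343); within each number, blood was lower.

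Among the activators, Psme3, which forms a nuclear activator, had 47.6, 45.4 and 44.2 CPM in blood, against 77.8, 68.5 and 62.98 CPM in bone marrow, and fell (-0.61 ± 0.12, adjusted p 0.00837), a call lost without blood replicate 1 (0.123), 2 (0.161) or 3 (0.115). Psme4, a large activator linked to the degradation of histones, fell too (-0.54, adjusted p 0.0236, and 0.0589 to 0.319 without any blood or bone marrow library). Psme1 (-0.43, adjusted p 0.0921, and adjusted p 0.0416 with the replicate block) and Psme2 (-0.30) did not pass. Psme2b (Entrez 621823, chr11:48945352-48946410, mm10) was the member that rose. It had 13.5, 23.2 and 31.6 CPM in blood, against 6.51, 9.66 and 6.57 CPM in bone marrow, with no overlap (1.59 ± 0.39, adjusted p 0.0207). This call was lost without bone marrow replicate 1 (0.0783), 3 (0.0859), blood replicate 2 (0.0664) or 3 (0.088).

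As a whole, the count of 21 lower genes moved with each blood library: it was 6, 4 and 9 without blood replicate 1, 2 and 3. The fits without them also tested more genes (14545, 14522 and 14610), with a members' median of -0.39, -0.33 and -0.50. Which of these moved the count was not tested. Psmb6, Psmd1, Psmd6 and Psmd14 passed whichever library was left out, and Psmd14 in every alternative run. On log2(FPKM + 0.1), tested with limma, 2 members were higher and 3 lower, with medians of -0.10 over the members and 0.25 over all genes.

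**Figure D2:**
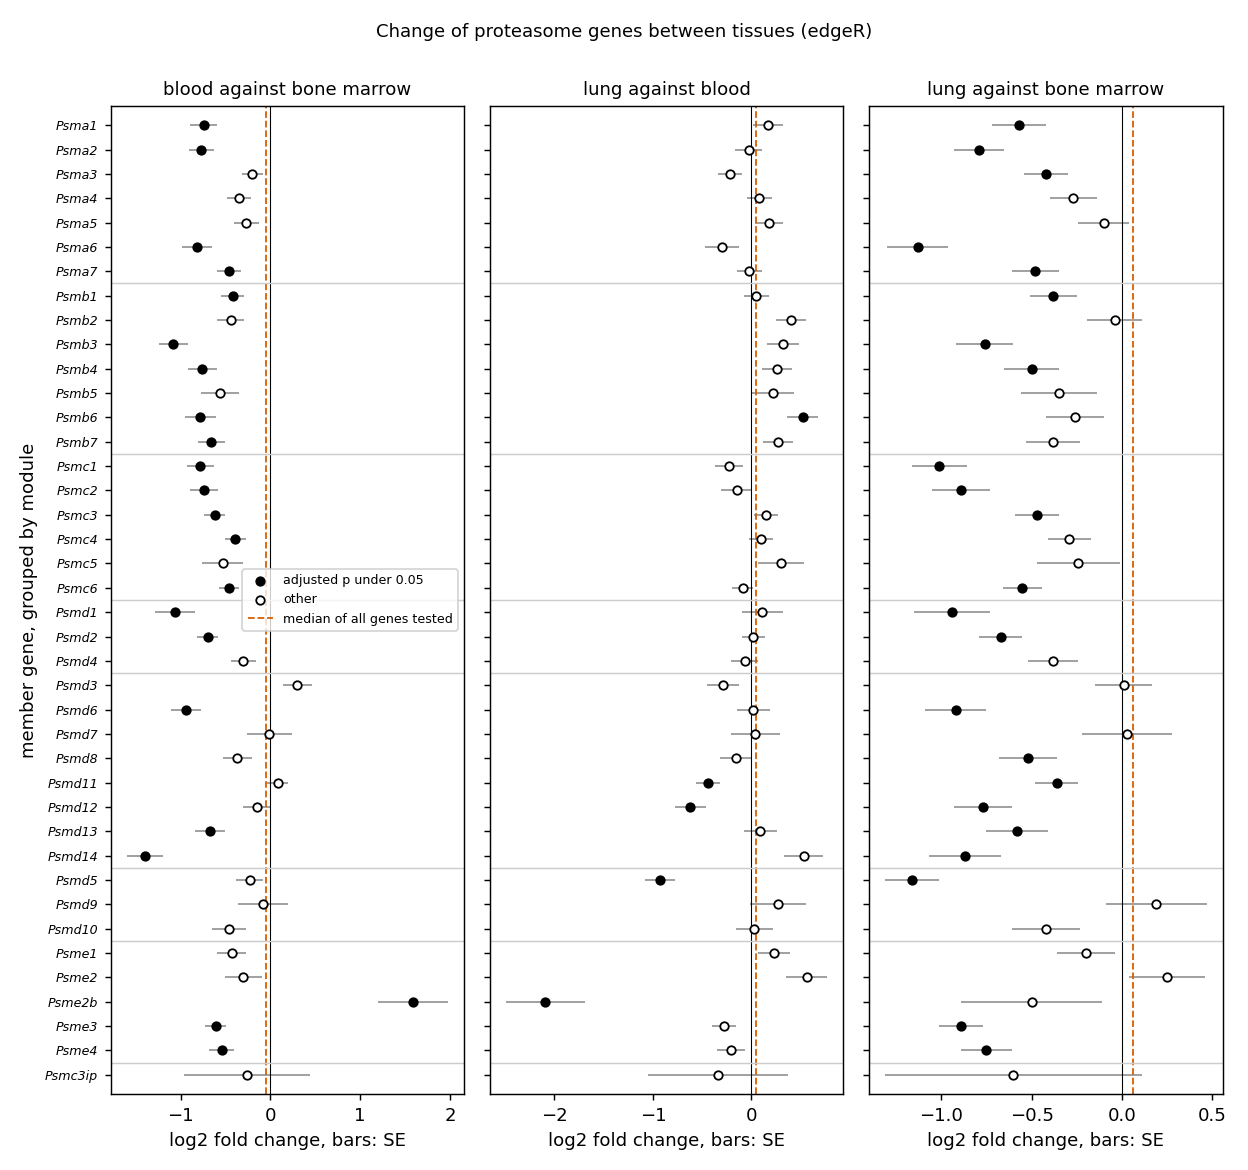
Log2 fold change of each of the 40 tested genes in blood against bone marrow, lung against blood and lung against bone marrow, from edgeR; bars are SE, filled points have an adjusted p under 0.05, and the dashed line is the median of all 13510 genes tested. Most points lie left of the dashed line in both comparisons with bone marrow and on either side of it in lung against blood, where Psme2b is at -2.09.

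Lung was set against blood, cells in the tissue against circulating cells. In lung, 1 of the 40 proteasome genes was higher than in blood (13.2% of all genes) and 4 were lower (15.7% of all genes). Libraries did not overlap, with lung higher, for 5 genes (17.6% of all genes) and, with lung lower, for 8 (24.0% of all genes). The median log2 fold change was 0.04 over the 40 genes and 0.05 over all genes. Upper-quartile scaling, which moved the median of all genes to 0.21, gave 7 higher and 2 lower, and the replicate block gave 3 higher and 4 lower. With edgeR on the RSEM counts of the same 6 libraries, a second quantification, 1 was higher (10.3% of all genes) and 2 were lower (12.0%).

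The catalytic subunit Psmb6 was the gene that rose, with 25.8, 21.7 and 17.3 CPM in lung, against 15.4, 16.5 and 13.3 CPM in blood. Its lowest lung library, replicate 3, was just above its highest blood library (0.52 ± 0.16, adjusted p 0.0427). The call was lost when any library except lung replicate 3 was left out (0.0627 to 0.144), in limma-voom (0.0571) and on RSEM counts (0.107). Limma on log2(FPKM + 0.1) or + 1 (0.348 and 0.346) and the 6 lung and blood libraries alone (0.104) lost it too. Psmb5 had 20.97, 18.2 and 21.8 CPM in lung, against 16.6, 14.3 and 21.5 CPM in blood, and Psmb7 had 26.0, 27.5 and 30.1 CPM in lung, against 26.6, 21.8 and 20.95 CPM in blood. Both overlapped and neither passed (0.22 ± 0.21 and 0.27 ± 0.15; adjusted p 0.488 and 0.21, the second 0.0417 with upper-quartile scaling). The 7 tested beta-ring genes lay between 0.05 for Psmb1, which was also the median of all genes, and 0.52 for Psmb6, the only 1 of them that passed. These values depended on the scaling: mean FPKM of Psmb1, without TMM factors, was 36.87 in lung, against 38.35 in blood. The 7 alpha-ring genes lay between -0.30 for Psma6 and 0.18 for Psma5, and none of them passed.

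The assembly chaperone Psmd5 (Entrez 66998, chr2:34852089-34870962, mm10) fell in lung. It had 7.81, 7.14 and 6.06 CPM in lung, against 13.6, 12.5 and 13.9 CPM in blood. Every lung library was well below every blood library (-0.93 ± 0.15, adjusted p 0.00257). The call held in every alternative run, with -0.82 on RSEM counts (adjusted p 0.0349). In GENCODE M21 Psmd5 overlaps a coding gene, Cutal, on the opposite strand. The other chaperones, Psmd9 (0.27) and Psmd10 (0.03), did not pass.

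A pair of lid scaffolds fell as well. Psmd12 had 11.6, 13.9 and 9.36 CPM in lung, against 18.2, 19.2 and 16.1 CPM in blood (-0.62 ± 0.16, adjusted p 0.0212). Psmd11 had 16.98, 16.2 and 19.2 CPM in lung, against 24.7, 21.8 and 24.4 CPM in blood (-0.44 ± 0.12, adjusted p 0.0277). Lung was lower in every library for both genes. The Psmd12 call was lost without lung replicate 1 (0.0594), with upper-quartile scaling (0.115) and on RSEM counts (0.141). Limma on log2(FPKM + 0.1) or + 1 (0.0591 and 0.0605) and the 6 lung and blood libraries alone (0.0691) lost it too. The Psmd11 call was lost when any library except bone marrow replicate 1, 3 or lung replicate 3 was left out (0.0535 to 0.22) and on RSEM counts (0.139). It was also lost in DESeq2 (0.174), with DESeq2 size factors (0.176), upper-quartile scaling (0.0811), no filter on low counts (0.125) or the 6 libraries alone (0.0763). Psmd14 had 14.0, 13.2 and 11.02 CPM in lung, all above the 9.55, 10.5 and 6.39 CPM of blood, but did not pass (0.53 ± 0.20, adjusted p 0.0713; 0.0489 without lung replicate 3, 0.00798 in DESeq2 and adjusted p 0.0386 with the replicate block). Psmd4, the receptor of the base, had 69.4, 64.5 and 74.9 CPM in lung, against 72.4, 66.3 and 80.7 CPM in blood. These overlapped, and its difference of -0.07 ± 0.14 became 0.09 with upper-quartile scaling.

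Psme2b had 2.89, 6.62 and 6.56 CPM in lung, against 13.5, 23.2 and 31.6 CPM in blood, the largest difference of any member (-2.09 ± 0.40, adjusted p 0.00554). The groups did not overlap, and the call held in every alternative run. Psme2 itself had 72.9, 55.1 and 80.9 CPM in lung, against 44.3, 45.6 and 52.1 CPM in blood. Its lung libraries were above its blood libraries, but it did not pass (0.56 ± 0.21, adjusted p 0.0744; 0.60 and 0.0381 on RSEM counts, and adjusted p 0.0372 with the replicate block). Reads of the pair are hard to assign: of the 75-base windows of the Psme2b transcript, 60.2% occur letter for letter in Psme2, so the split of counts between them is uncertain. Psme2b also overlaps the coding gene 9930111J21Rik1 on its own strand. By GENCODE M21 it overlaps Gm12185 as well, but the coordinates of the counted table end that gene at position 48927182, short of Psme2b.

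Of these, 9930111J21Rik1 (chr11:48946150-48979381, mm10) had 13.02, 22.9 and 25.4 CPM in lung, 63.4, 101 and 128 CPM in blood and 34.7, 43.9 and 23.8 CPM in bone marrow. It was highest in the 3 blood libraries, as Psme2b was. It was at 1.51 in blood against bone marrow (adjusted p 0.0135) and at -2.25 in lung against blood (adjusted p 0.00221). How much of the Psme2b count came from this transcript or from Psme2 was not tested. Within each library, FPKM of Psme2b over that of Psme2 was 0.0330, 0.1002 and 0.0671 in lung, 0.254, 0.425 and 0.508 in blood and 0.125, 0.134 and 0.0762 in bone marrow, so that the blood libraries were the highest.

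Lung libraries also carried transcripts of other cells. The 7 lung epithelium markers summed to 61.8 to 880.4 CPM in lung, against 0.362 to 1.11 CPM in blood, and all 7 were higher. Macrophage markers summed to 167 to 1147 CPM in lung, against 95.9 to 140.2 CPM in blood, with 6 of 7 higher. Fibroblast and smooth muscle markers summed to 162 to 1533 CPM in lung, against 52.9 to 94.7 CPM in blood, with 5 of 6 higher. Endothelium markers summed to 20.2 to 74.0 CPM in lung, against 15.2 to 32.2 CPM in blood, with 5 of 6 higher. B and plasma cell markers (37.5 to 406 CPM in lung, against 53.6 to 334 CPM in blood, 1 of 7 higher) and T and NK cell markers (9.19 to 78.9 against 10.8 to 73.2 CPM, 0 of 7 called) overlapped. Erythroid markers summed to 32.8 to 428 CPM in lung, against 822 to 8812 CPM in blood, with 1 of 7 lower, and monocyte markers to 341 to 542 CPM in lung, against 688 to 703 CPM in blood, with 0 of 6 called by edgeR. No gene of these lists was at 0 in all libraries, and lung replicate 3 had the lowest lung sum of each but the monocyte list, where it had the highest. Without lung replicate 3, 2 members were higher and 5 lower than in blood; without lung replicate 1, 0 were higher and 2 lower. Proliferation markers summed to 103 to 115 CPM in lung, against 19.7 to 224 CPM in blood, with 2 of 7 higher and 0 lower. The part of other cells and of proliferation in the differences was not tested.

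**Figure D3:**
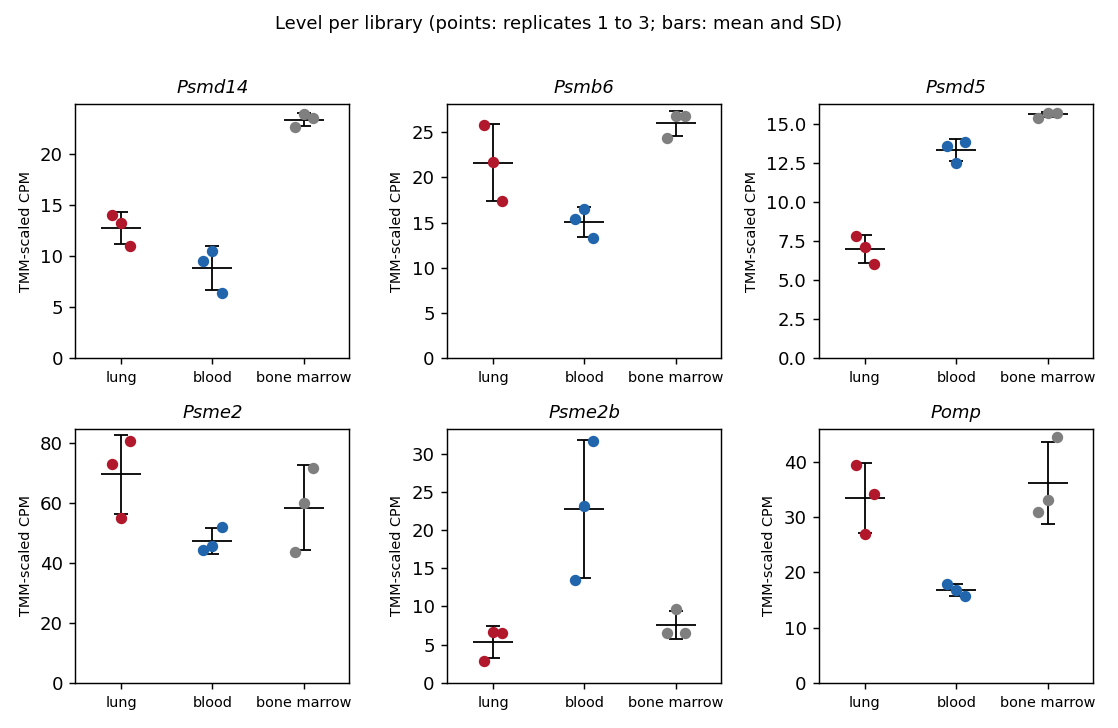
TMM-scaled CPM of 6 genes in each lung, blood and bone marrow library (points; bars are the mean and SD of 3 replicates). Psmd14 and Pomp are lowest in blood, Psmd5 is lowest in lung, and Psme2b is highest in blood, where its replicates run from 13.5 to 31.6 CPM.

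Lung was also set against bone marrow, the tissue cells against the site of production. In lung, 23 of the 40 genes were lower than in bone marrow (22.6% of all genes). In edgeR's test, 0 were higher (15.6% of all genes), as at an unadjusted p under 0.05, in DESeq2 and in limma-voom. Limma on log2(FPKM + 0.1) called 1 higher and 8 lower. Libraries did not overlap, with lung lower, for 28 genes (28.9% of all genes), and with lung higher for 0 (20.1% of all genes). The median log2 fold change was -0.49 over the 40 genes and 0.06 over all genes. Lung epithelium markers summed to 61.8 to 880.4 CPM in lung, against 3.50, 3.94 and 69.2 CPM in bone marrow replicates 1, 2 and 3, with 3 of 7 higher. Macrophage markers summed to 167 to 1147 CPM in lung, against 816 to 1105 CPM in bone marrow, with 6 of 7 higher. Chil3 alone had 787, 926 and 71.3 CPM in lung, against 934, 800 and 1082 CPM in bone marrow. Endothelium markers summed to 20.2 to 74.0 CPM in lung, against 18.1 to 19.1 CPM in bone marrow, with 5 of 6 higher. Fibroblast and smooth muscle markers summed to 162 to 1533 CPM in lung, against 121 to 268 CPM in bone marrow, with 4 of 6 higher and 1 lower. Monocyte markers summed to 341 to 542 CPM in lung, against 825 to 1198 CPM in bone marrow, without overlap but with 2 of 6 higher and 1 lower. Erythroid markers (32.8 to 428 CPM in lung, against 1719 to 9370 CPM in bone marrow) had 4 of 7 lower, without overlap of the sums, and the part of these cells was not tested. This comparison shares its bone marrow libraries with that of blood and its lung libraries with that of lung against blood.

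The lid had 6 of 8 genes lower. Psmd14 had 14.0, 13.2 and 11.02 CPM in lung, against 22.6, 23.9 and 23.4 CPM in bone marrow (-0.87 ± 0.20, adjusted p 0.00815). Psmd6 had 11.2, 12.1 and 9.11 CPM in lung, against 17.0, 22.3 and 22.2 CPM in bone marrow (-0.92 ± 0.17, adjusted p 0.00305). Lung was below bone marrow in every library of both genes. Psmd12 (-0.77), Psmd13 (-0.58), Psmd8 (-0.52) and Psmd11 (-0.36) fell too, without overlap. The Psmd8 call was lost when any library except bone marrow replicate 1 or lung replicate 3 was left out (0.0787 to 0.166), the Psmd11 call when any library except lung replicate 3 was left out (0.0833 to 0.275) and the Psmd13 call when any library except bone marrow replicate 1, 2 or lung replicate 3 was left out (0.074 to 0.137). Psmd7, which pairs with Psmd14 in the lid, was at 0.03 and Psmd3 at 0.01, and neither passed.

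Among the ATPases, 4 of 6 were lower. Psmc1 had 21.8, 18.9 and 19.1 CPM in lung, against 36.9, 39.4 and 43.8 CPM in bone marrow (-1.01 ± 0.15, adjusted p 0.000815). Psmc2 had 20.8, 21.7 and 15.4 CPM in lung, against 33.1, 36.1 and 38.3 CPM in bone marrow (-0.89 ± 0.16, adjusted p 0.00253). In both genes each lung library was below each bone marrow library. Psmc3 (-0.47) and Psmc6 (-0.55) fell as well, while Psmc4 (-0.29) and Psmc5 (-0.24) did not pass. The Psmc3 call was lost without blood replicate 1 (0.0643), 2 (0.0676) or lung replicate 2 (0.0526). Of the other base subunits, Psmd1 had 17.3, 16.4 and 9.98 CPM in lung, against 28.6, 26.8 and 28.6 CPM in bone marrow, with lung replicate 3 the lowest (-0.94 ± 0.21, adjusted p 0.00862). Psmd2 fell as well (-0.67, adjusted p 0.00239). Psmd4 had 69.4, 64.5 and 74.9 CPM in lung, against 83.8, 84.7 and 102 CPM in bone marrow, without overlap, but did not pass (-0.38 ± 0.14, adjusted p 0.0573; 0.0311 without lung replicate 3 and adjusted p 0.0162 with the replicate block).

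Of the chaperones, Psmd5 had 7.81, 7.14 and 6.06 CPM in lung, against 15.4, 15.7 and 15.7 CPM in bone marrow, the largest fall of any member (-1.16 ± 0.15, adjusted p 0.000441). Every lung library was far below every bone marrow library. Psmd10 (-0.42, adjusted p 0.116, and adjusted p 0.0457 with the replicate block) and Psmd9 (0.19) did not pass.

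In the core, the alpha ring had 5 of 7 genes lower and the beta ring 3 of 7. Psma6 had 26.1, 24.9 and 25.7 CPM in lung, against 49.8, 48.3 and 69.1 CPM in bone marrow (-1.13 ± 0.17, adjusted p 0.00104). Psma2 had 38.6, 33.1 and 38.04 CPM in lung, against 56.2, 61.7 and 72.5 CPM in bone marrow (-0.79 ± 0.14, adjusted p 0.00202). Both were lower in every lung library, and in GENCODE M21 Psma2 overlaps a coding gene, AW209491, on its own strand. Psma1 (-0.57), Psma3 (-0.42), Psma7 (-0.48), Psmb1 (-0.38), Psmb3 (-0.76) and Psmb4 (-0.50) also fell. Apart from Psmb3, each of these calls was lost without any blood library, lung replicate 2, bone marrow replicate 3 and in some cases others, with adjusted p up to 0.156. The Psmb1 call was also lost with the replicate block (adjusted p 0.051). None of the 3 catalytic subunits passed. Psmb5 was at -0.35 ± 0.21 (adjusted p 0.222), Psmb6 at -0.26 ± 0.16 (0.234; 0.06 with upper-quartile scaling) and Psmb7 at -0.38 ± 0.15 (0.069; 0.0421 without lung replicate 3). Missing the threshold does not show that their levels were the same.

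Among the activators, Psme3 had 34.9, 41.1 and 36.9 CPM in lung, against 77.8, 68.5 and 62.98 CPM in bone marrow, without overlap (-0.89 ± 0.12, adjusted p 0.00062). Psme4 fell as well (-0.75, adjusted p 0.00299). The inducible chains did not pass, with Psme1 at -0.20 and Psme2 at 0.25, nor did Psme2b (-0.50, adjusted p 0.332).

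Of the 23 lower genes, 14 passed whichever library was left out, and 7 (Psma2, Psma6, Psmb3, Psmc1, Psmd5, Psme3 and Psme4) passed in every alternative run. The count was 14 without lung replicate 2, 15 without bone marrow replicate 3, and 14, 14 and 15 without blood replicate 1, 2 and 3. Those last fits also tested more genes (14545, 14522 and 14610), with a median over all genes of 0.21 to 0.22 and a members' median of -0.41, and which of these moved the count was not tested. Upper-quartile scaling gave 1 higher and 9 lower.

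The size of the shift against bone marrow depended on the scaling, and the gap to all genes less so. Upper-quartile scaling moved the median of all genes to 0.11 in blood and to 0.38 in lung against bone marrow. The members' median minus that of all genes was -0.41 in blood against bone marrow, with a range of -0.51 to -0.22 over 19 settings. The difference was -0.56 in lung against bone marrow, with a range of -0.73 to -0.36 over 19 settings. In lung against blood it was -0.02, with a range of -0.16 to 0.06 over 20 settings.

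**Figure D4:**
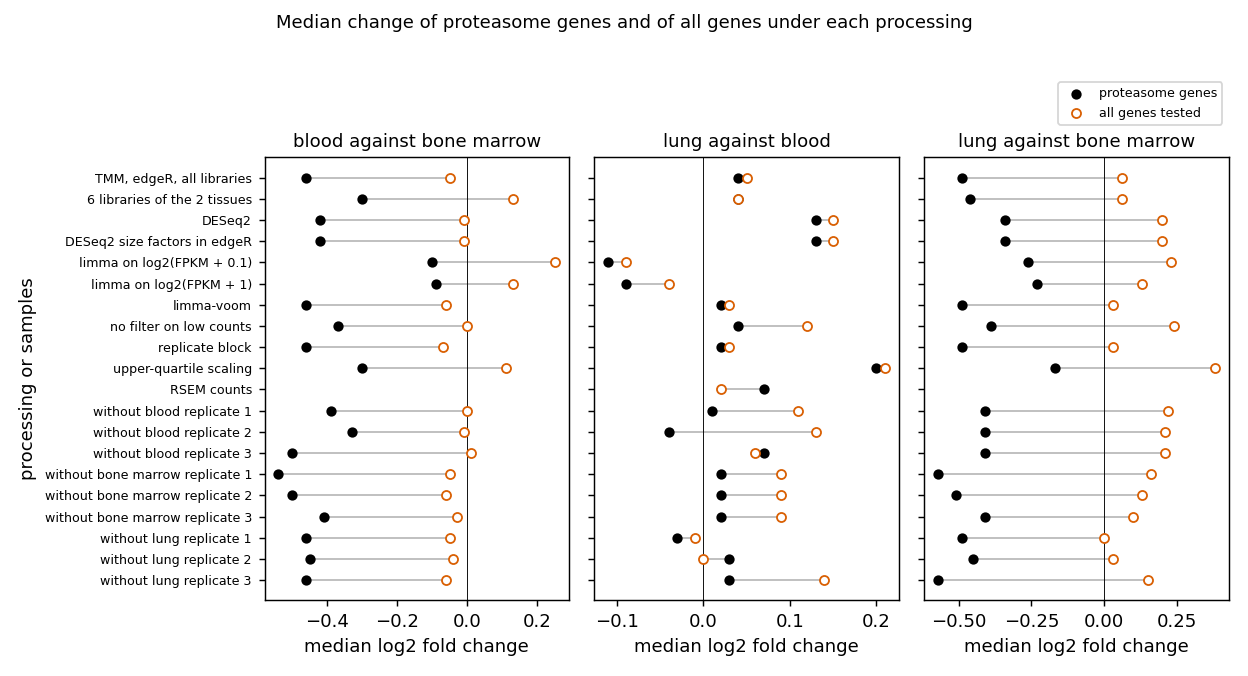
Median log2 fold change of the proteasome genes (filled) and of all genes tested (open) under each processing or set of samples, for blood against bone marrow, lung against blood and lung against bone marrow; horizontal axes differ between panels, and RSEM counts exist for lung against blood only. Filled points lie left of open ones in every row of both comparisons with bone marrow, and the difference runs from -0.16 to 0.06 in lung against blood.

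Partners of the proteasome were followed as a list of 35 measured genes: immunoproteasome and further subunits, assembly factors, shuttles, regulators, ubiquitin genes and activating enzymes. In blood against bone marrow, 4 of the 35 were lower and 0 higher in edgeR's test; 3 were higher at an unadjusted p under 0.05, 2 in DESeq2 and 0 in limma-voom. With the replicate block, 1 gene, Ubqln4, was higher (adjusted p 0.0338). In lung against blood, 4 were higher and 5 lower, or 8 lower with the replicate block. In lung against bone marrow, 4 were higher and 12 lower. The shares of all genes called are those given above. These counts leaned on single libraries: the lower ones were 1 without blood replicate 2 and 7 without lung replicate 3 in blood against bone marrow, and 1 without blood replicate 1 and 8 without lung replicate 3 in lung against blood. In lung against bone marrow, lower calls numbered 3 without blood replicate 1 or 2 and 10 without lung replicate 3, and higher calls 1 without bone marrow replicate 2 or 3 or lung replicate 2.

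Pomp, the maturation factor of the beta ring, had 39.3, 26.8 and 34.2 CPM in lung, 17.8, 16.8 and 15.7 CPM in blood and 30.9, 33.1 and 44.5 CPM in bone marrow. Every blood library was below the other 6. Pomp was lower in blood than in bone marrow (-1.11 ± 0.19, adjusted p 0.00377) and higher in lung than in blood (0.99 ± 0.19, adjusted p 0.00502), and both calls held in every alternative run. Pomp was at -0.11 ± 0.18 in lung against bone marrow (adjusted p 0.655). Shfm1, now called Sem1, a small lid subunit, was lower in blood than in bone marrow (-1.36, adjusted p 0.00759), a call lost without blood replicate 1 (0.0753) or 2 (0.0885). Vcp, the segregase that extracts proteins for degradation, was lower in blood (-0.78, adjusted p 0.00557) and in lung (-1.08, adjusted p 0.000516) than in bone marrow. The Vcp call in blood was lost without blood replicate 1 (0.073) or 2 (0.0757).

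Nfe2l2, a transcription factor of the response to oxidants that binds the antioxidant element, had 822, 1139 and 1842 CPM in lung, 296, 179 and 277 CPM in blood and 271, 265 and 311 CPM in bone marrow. Each lung library was above all others. Nfe2l2 was higher in lung than in blood (2.34 ± 0.33, adjusted p 0.00143) and than in bone marrow (2.17 ± 0.32, adjusted p 0.000955). Nfe2l1, the factor that raises proteasome genes when proteasome activity falls short, had 48.6, 55.4 and 46.5 CPM in lung, 61.95, 63.6 and 77.8 CPM in blood and 68.5, 73.4 and 79.8 CPM in bone marrow. Its lung libraries were the lowest. It was lower in lung than in blood (-0.44 ± 0.14, adjusted p 0.0418), a call lost when any library except lung replicate 2 was left out (0.0524 to 0.245), and than in bone marrow (-0.56 ± 0.14, adjusted p 0.0122), a call lost without blood replicate 1 (0.0662) or 2 (0.0688).

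Txnl1, a thioredoxin-like protein bound to the cap, had 107, 106 and 194 CPM in lung, 31.3, 12.3 and 7.84 CPM in blood and 56.7, 41.9 and 53.2 CPM in bone marrow. Each lung library was above, and each blood library below, all bone marrow libraries. The rise in lung against blood held in every alternative run (2.99 ± 0.50, adjusted p 0.00309). Its fall in blood against bone marrow (-1.56, adjusted p 0.0452) was lost when any library except blood replicate 1 or lung replicate 3 was left out (0.0585 to 0.198), and its rise in lung against bone marrow (1.42, adjusted p 0.0402) when any library except blood replicate 1, 2 or 3 was left out (0.0597 to 0.135). Both were lost with the replicate block as well (adjusted p 0.0519 and adjusted p 0.0529). Usp14, a deubiquitinase bound to the base, was higher in lung than in blood (1.28, adjusted p 0.036), a call lost when any library except bone marrow replicate 1, 3, blood replicate 2 or lung replicate 3 was left out (0.0548 to 0.138). Zfand5, a stimulator of the proteasome, and Ubqln2, a shuttle for ubiquitinated proteins, were lower in lung than in blood (-0.87 and -0.81, adjusted p 0.0077 and 0.00791). The Zfand5 call was lost without blood replicate 1 (0.0517). In lung against bone marrow Zfand5 fell too (-1.04, adjusted p 0.00213), as did Psmg3, a chaperone of core assembly (-1.08, adjusted p 0.0496), a call lost when any library except lung replicate 1 was left out (0.0518 to 0.138) and with the replicate block (adjusted p 0.0535).

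The immunoproteasome subunits take the place of the catalytic ones under interferon, and each was set against its counterpart by FPKM within the library. Psmb8 over Psmb5 was 2.09, 2.27 and 2.45 in lung, 3.38, 3.80 and 3.29 in blood and 2.33, 2.07 and 2.08 in bone marrow. The blood libraries were above all others, and lung and bone marrow overlapped. Psmb9 over Psmb6 was 1.81, 2.06 and 3.40 in lung, 4.15, 3.79 and 6.53 in blood and 2.61, 2.96 and 3.79 in bone marrow. Blood was above lung, and its lowest library met the highest of bone marrow. Psmb10 over Psmb7 was 0.595, 0.414 and 0.338 in lung, 0.386, 0.597 and 0.574 in blood and 0.241, 0.298 and 0.272 in bone marrow, where it was lowest. In two-sided exact permutation tests, each pair of tissues without overlap gave p 0.1, the smallest that 3 against 3 allows, so that none of these ratios could pass 0.05.

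The immunoproteasome genes were also tested by level. Psmb8 had 61.5, 58.2 and 75.1 CPM in lung, 78.95, 76.4 and 99.2 CPM in blood and 64.8, 74.4 and 93.5 CPM in bone marrow. It passed in no comparison, at 0.13 in blood against bone marrow, -0.39 in lung against blood and -0.26 in lung against bone marrow, though with the replicate block it was lower in lung than in blood (adjusted p 0.0245). Nor did Psmb10, at 0.27, 0.07 and 0.34 in the same order. Psmb9 had 36.3, 34.9 and 45.8 CPM in lung, 49.6, 48.7 and 67.8 CPM in blood and 49.4, 61.6 and 79.03 CPM in bone marrow. It was lower in lung than in bone marrow (-0.70 ± 0.21, adjusted p 0.0281), a call lost when any library except bone marrow replicate 1 or lung replicate 3 was left out (0.0693 to 0.113), and in lung against blood it did not pass but did with the replicate block (-0.51, adjusted p 0.103, and adjusted p 0.0126 with the block).

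**Figure D5:**
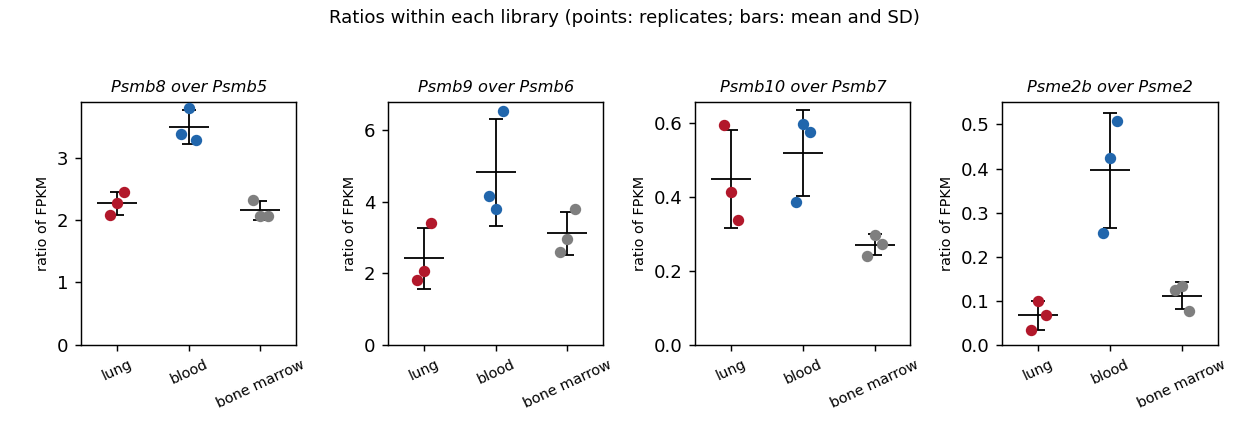
Ratio of FPKM of each immunoproteasome subunit to its catalytic counterpart, and of Psme2b to Psme2, in each lung, blood and bone marrow library (points; bars are the mean and SD of 3 replicates). Psmb8 over Psmb5 averages 2.27 in lung, 3.49 in blood and 2.16 in bone marrow, and Psme2b over Psme2 is highest in the blood libraries.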

How the data were processed

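Per the labels' protocols, cells were sorted on a FACS Aria III, and libraries were prepared with a TruSeq kit that is named both as standard and as stranded, so reads of overlapping genes on opposite strands may not be separated. Per the submitters' processing notes, the build was mm10 and the tools were DESeq2, RSEM, StringTie 2.1.3b, STAR and Bowtie2, in roles not given in the sources used here. Per the file headers, the table deposited for the series lists counts and FPKM of 36780 transcripts in 9 libraries. Its counts are whole and not normalized, whatever its name says, and in lung and blood were 2.00 to 2.02 times the deposited RSEM expected counts, so the floor of 3 counts, which covers counting error only, may be too low. Counts were summed by Entrez gene. Expected counts, rounded to whole numbers, served as an alternative in lung and blood.

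All 9 libraries were fitted with edgeR 4.0.16 (filterByExpr, TMM, robust quasi-likelihood, group means, two-sided), with Benjamini-Hochberg adjustment over 13510 genes at 0.05 and a common biological coefficient of variation of 0.448. SE is the absolute log2 fold change over the square root of F. Alternatives were other scalings, no filter, DESeq2 1.42.0, limma 3.58.1 on voom weights or on log2(FPKM + 0.1) or + 1, the 6 libraries of a comparison, left-out libraries and a replicate block. R 4.3.3, Python 3.11.15, pandas 2.3.3, numpy 2.4.6 and matplotlib 3.10.9 were used, and the fits were tested on simulated data. Fold changes on a log2(FPKM + constant) scale understate those of low genes. FPKM was also used as deposited, without TMM factors, which bears on all genes. In blood against bone marrow the median of all genes was 0.25 on log2(FPKM + 0.1), against -0.05 in the main fit. How much of the change in calls came from either was not tested.

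The members, lists and rules were chosen with earlier results of these data known. Values in every library are given for Psmb5, Psmb6, Psmb7, Psmd4 and Psmd14, for Psme2b, and per comparison for the 8 called members with the largest log2 fold changes and at least 20 CPM in the higher tissue. Partners named are Psmb8, Psmb9, Psmb10, Nfe2l1, Nfe2l2, Pomp and at most 6 called genes per comparison. Psmd5 and Psmd12 in lung against blood, and further values in every library (Psmd5 and Psme3 among them), were added after values were seen. Replicate numbers in the titles were checked for pairing by the correlation of same-numbered libraries in their deviations from the means of their tissues. It was 0.127, 0.409 and 0.518 between lung and blood and 0.153, 0.174 and 0.186 between lung and bone marrow, all over the 0.1 taken as pairing. Between blood and bone marrow it was 0.049, 0.149 and 0.382, so that replicate 1 fell short, and 4 of the 18 pairs with different numbers also passed 0.1. The labels name no shared mouse or day, so the fit without the block is given first, and blocked values stand beside the results whose call they change. Overlapping genes are from GENCODE M21.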

Additional observations from a re-analysis of the deposited data

How the results depend on the processing

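For the proteasome genes, the share of higher and lower calls depended on scaling, on the test and on the libraries and genes that entered, and the cause was not tested. In blood against bone marrow, log2(FPKM + 0.1) and log2(FPKM + 1) each gave 2 higher and 3 lower, the 6 libraries alone 2 higher, and no filter on low counts 12 lower. The median there was -0.30 with upper-quartile scaling, -0.10 and -0.09 on the FPKM scales and -0.30 with 6 libraries. In lung against blood, higher calls numbered 2 with DESeq2 size factors, 7 with upper-quartile scaling, 3 in DESeq2, and 0 in limma-voom, on both FPKM scales and with 6 libraries. Lower calls numbered 2 with upper-quartile scaling, 6 libraries or RSEM counts, and the median was 0.20 with upper-quartile scaling and -0.11 and -0.09 on the FPKM scales. In lung against bone marrow, upper-quartile scaling and log2(FPKM + 0.1) each gave 1 higher. Lower calls there numbered 14 with DESeq2 size factors, no filter or 6 libraries, 9 with upper-quartile scaling, 15 in DESeq2 and 8 on both FPKM scales. The median was -0.34 with DESeq2 size factors and in DESeq2, -0.17 with upper-quartile scaling, -0.39 with no filter and -0.26 and -0.23 on the FPKM scales.

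Summed CPM was 1210 and 1276 in lung with DESeq2 size factors and upper-quartile scaling, 1270 in blood and 1392 in bone marrow on total counts, and 1442 in bone marrow with upper-quartile scaling. Psmd4 turned round in blood against bone marrow on both FPKM scales (0.06 each), and in lung against blood with DESeq2 size factors and in DESeq2 (0.03 each), upper-quartile scaling (0.09) and without blood replicate 3 (0.03). Psmb6 turned round in lung against bone marrow with upper-quartile scaling (0.06). Of the other single-gene values, 1101 kept direction and side of the threshold, 502 lost a call and 10 gained one.

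Among the partners, higher calls in blood against bone marrow numbered 1 with DESeq2 size factors or no filter, 2 with upper-quartile scaling or DESeq2, and 3 on both FPKM scales and with 6 libraries. Lower calls in lung against blood numbered 2 with DESeq2 size factors, upper-quartile scaling, no filter, DESeq2 or 6 libraries, 9 on both FPKM scales and 3 on RSEM counts. In lung against bone marrow, DESeq2 gave 8 higher and 7 lower, and lower calls numbered 3 with DESeq2 size factors, upper-quartile scaling or no filter, 6 on both FPKM scales and 4 with 6 libraries.

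With 1 library left out, members called ranged from 0 to 1 higher and 4 to 24 lower in blood against bone marrow, 0 to 2 higher and 2 to 5 lower in lung against blood, and 0 to 0 higher and 14 to 25 lower in lung against bone marrow. Their medians ranged from -0.54 to -0.33, -0.04 to 0.07 and -0.57 to -0.41 in that order. Partners called ranged from 0 to 2 higher and 1 to 7 lower, 3 to 4 higher and 1 to 8 lower, and 1 to 4 higher and 3 to 10 lower.

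Where the pairing was taken up with the number as a replicate block, members called were 1 higher and 24 lower in blood against bone marrow, 3 higher and 4 lower in lung against blood, and 0 higher and 24 lower in lung against bone marrow. Partners called with the block were 1 higher in blood against bone marrow and 8 lower in lung against blood. Gene calls that the block gained or lost are named beside their results, apart from those of the partners Psmf1, Rps27a and Uba1 (blood against bone marrow), Ngly1 (lung against blood) and Psmg2 (lung against bone marrow), all gained; it changed no other call of a member or partner. The effect of depth was not tested. Counts were lowest for Psma8 and Psmb11 and, among the tested members, for Psmc3ip, with 6 to 23 counts per library and an SE of 0.70 in blood against bone marrow.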
